A study of Mus musculus with 2 samples.

Results

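The genes described here are 9 components and regulators of the complement system, out of 24532 genes in the count table. They are *C1ra*, *C1s1*, *Masp1*, *C4b*, *C3*, *Cfb*, *Serping1*, *Cd55* and *Cd59a*, taken by their symbols, and all 9 were found in the counts and in both TPM tables. The cells were cardiac myofibroblasts of C57BL/6 mice (C57BL/6J in the methods of the study), the CD45-negative cells that attached to plastic after digestion of hearts 3 days after MI. The treatments were a control siRNA (siCtrl) and si*Vgll3*, an siRNA that targets *Vgll3*, a transcription cofactor that the study examined in collagen production. Each siRNA was used at 12.5 nM for 72 h, with the same transfection reagent, and mRNA was then sequenced. A single siRNA against *Vgll3* was used and each condition is represented by 1 library, so there is no replicate check and no p-value is given for any gene. How many animals the cells came from is not given in the sources used here.

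Complement is a cascade of secreted proteases and their substrates that tags surfaces for removal and can end in a membrane-piercing complex. In the classical pathway, C1r activates C1s, which cleaves C4 and C2, and in the lectin pathway the MASP proteases do similar work on sugar-bearing surfaces. Both routes, and the alternative pathway with factor B, converge on cleavage of C3, whose fragments bind covalently to nearby surfaces through a thioester bond, as those of C4 do. C1 inhibitor, the product of *Serping1*, blocks C1r, C1s and some of the MASPs in solution. Cells protect themselves with membrane proteins, among them CD55, which dissociates the convertases that cleave C3, and CD59, which blocks assembly of the membrane attack complex. The liver makes most complement proteins of the blood, but fibroblasts and other stromal cells also express several of these genes.

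Of the 9 genes, 6 of the 7 with secreted products were at a lower level in si*Vgll3* and both with GPI-anchored products at a higher level. Over the 11754 genes with a mean level above 1 TPM, between 53.7% and 61.0% were lower in si*Vgll3* by any amount. Transcripts of the 6 secreted components, those of *Serping1*, *C3*, *Masp1*, *C4b*, *C1ra* and *C1s1*, lay between 38.9% (*Masp1*) and 71.0% (*C1s1*) of that in siCtrl. *Cfb*, the other secreted member, was higher in si*Vgll3* but at under 1 TPM in both libraries. Transcripts of *Cd55* and *Cd59a*, whose products are tied to the cell surface by a GPI anchor, were higher, 2.22-fold and 1.65-fold. Summed over the 7 secreted members, TPM (a transcript level scaled for gene length and library depth) was 328 with siCtrl and 162 with si*Vgll3*. The sum of *Cd55* and *Cd59a* was 34.1 TPM with siCtrl and 69.9 TPM with si*Vgll3*. The plot of member levels shows these shifts gene by gene.

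**Figure D1:**
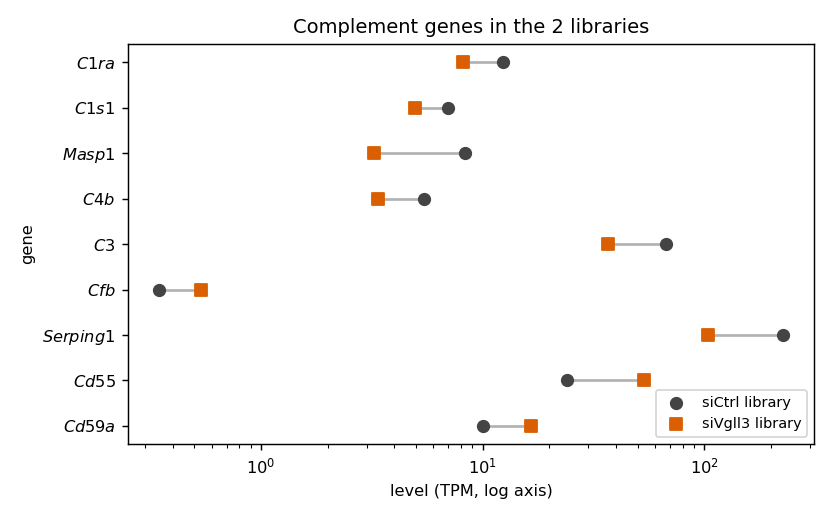
Level of each of the 9 complement genes in TPM (log axis) in the siCtrl library (circles) and the siVgll3 library (squares), 1 library per condition, with a line joining the values of each gene. *Serping1* had the highest level in both libraries, at 227 and 104 TPM, and *Cfb* the lowest, at 0.348 and 0.535 TPM.

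Differences are given as M, the log2 ratio of si*Vgll3* TPM to siCtrl TPM, and A is log2 of the mean TPM of both libraries. Values in square brackets are 95% Clopper-Pearson intervals of the read ratio moved onto the TPM ratio. They cover counting error only, since reads are not independent molecules, and compare these libraries rather than the conditions. A gene was counted as lower at M < −0.5 and as higher at M > 0.5, each with A > 0. The first is the rule for downregulated genes in the study's MA plot, and the second is the same rule with the sign reversed. By this rule 11.4% of the 11754 genes with A > 0 were lower and 5.73% were higher, and the median M of all these genes was −0.05. Of the same genes, 53.7% had M below −0.0219 and 61.0% had M below 0.0245. Of the members, 8 had A > 0, of which 5 were lower, 2 were higher and 1, *C1s1*, lay between the thresholds. *Cfb* did not reach A > 0 and is outside this count. The median M of the 8 genes was −0.65, a value that joins genes of both directions. The siCtrl library held 140815237 reads on genes and the si*Vgll3* library 125789276. Reads on *Vgll3* itself (NCBI gene 73569) numbered 42925 in siCtrl against 16524 in si*Vgll3*, for an M of −1.27 [−1.29, −1.24].

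**Figure D2:**
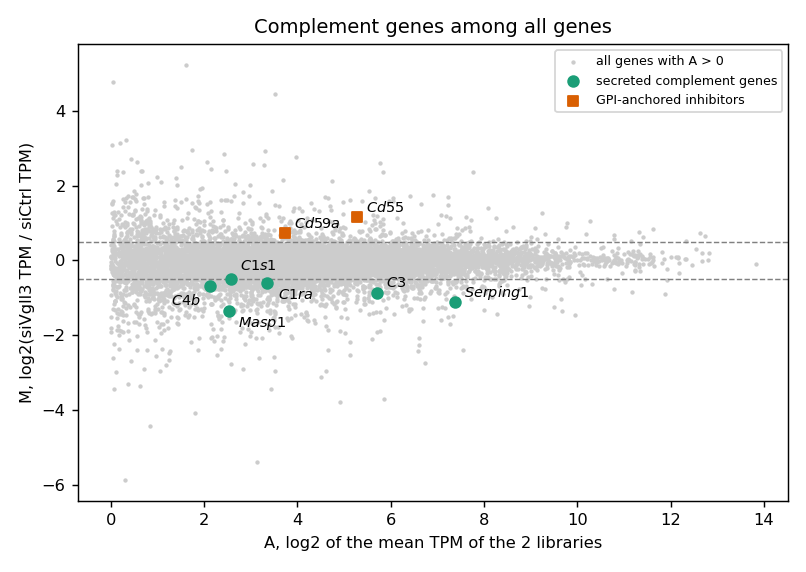
M (log2 of siVgll3 TPM over siCtrl TPM) against A (log2 of mean TPM) for the 11754 genes with A > 0 (grey) and the 8 complement genes among them (colours), with dashed lines at M of −0.5 and 0.5. The secreted genes lie between −1.36 and −0.49, and *Cd55* and *Cd59a* lie at 1.15 and 0.73.

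Promoter sequences are shown for *C3* and *C1s1*, at negative M, and for *Cd55* and *Cd59a*, at positive M, so that genes of both directions can be compared. The RefSeq promoter table for GRCm38.p6, the assembly also called mm10, held 5 of the 9 members. Each run covers the 250 bases before the annotated start, 5′ to 3′ on the gene's strand. The *C3* run is chr17:57228137-57228386 on the minus strand, the *C1s1* run is chr6:124542360-124542609 on the minus strand, the *Cd55* run is chr1:130462745-130462994 on the minus strand and the *Cd59a* run is chr2:104095551-104095800 on the plus strand. Capitals mark matches on either strand to any of 5 short motifs that were searched, namely TEAD (GGAATG), GAS (TTCNNNGAA), ISRE (AAANNGAAA), NF-κB (GGGANTTCC) and C/EBP (TTGCNNAA).
C3: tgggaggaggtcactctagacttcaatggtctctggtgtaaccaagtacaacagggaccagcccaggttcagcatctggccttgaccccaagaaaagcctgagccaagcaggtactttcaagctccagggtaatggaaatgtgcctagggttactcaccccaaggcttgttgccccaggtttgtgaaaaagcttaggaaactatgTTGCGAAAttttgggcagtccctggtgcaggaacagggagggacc
C1s1: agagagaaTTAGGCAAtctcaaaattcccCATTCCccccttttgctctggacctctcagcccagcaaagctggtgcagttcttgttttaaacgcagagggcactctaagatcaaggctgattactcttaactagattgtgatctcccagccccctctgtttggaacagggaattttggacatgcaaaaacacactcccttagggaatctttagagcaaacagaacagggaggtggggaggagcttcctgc
Cd55: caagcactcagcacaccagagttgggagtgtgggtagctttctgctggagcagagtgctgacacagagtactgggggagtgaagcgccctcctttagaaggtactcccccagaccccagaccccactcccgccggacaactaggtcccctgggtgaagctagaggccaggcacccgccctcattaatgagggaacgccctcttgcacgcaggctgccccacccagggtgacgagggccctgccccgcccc
Cd59a: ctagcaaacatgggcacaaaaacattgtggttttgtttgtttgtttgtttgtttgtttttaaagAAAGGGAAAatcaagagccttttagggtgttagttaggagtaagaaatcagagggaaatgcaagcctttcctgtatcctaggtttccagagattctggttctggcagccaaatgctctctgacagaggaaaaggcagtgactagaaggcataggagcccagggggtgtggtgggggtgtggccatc

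The *C3* run holds 1 C/EBP match, whose first base lies 45 bases before the start. A C/EBP match stands 242 bases and a TEAD match 221 bases before the start of *C1s1*, both on the opposite strand of the run. The table holds another start for *C1s1*, whose 250-base window, chr6:124542322-124542571, has 0 matches, so these matches depend on the start used. *Cd59a* has 1 ISRE match 186 bases before its start, and the *Cd55* run, at 64.0% GC against a median of 52.4% over all promoters, has none of the 5 motifs. *C1ra*, the other member in the table, has a TEAD match 74 bases before its RefSeq start. Its window, chr6:124512371-124512620, includes the GENCODE start at 124512405. The match lies within the gene as GENCODE annotates it, so it too depends on the start used. Such matches are common. Among 32851 promoter windows of the same length, 12.6% hold the TEAD letters, 9.56% the C/EBP letters, 9.37% the ISRE letters, 7.02% the GAS letters and 1.43% the NF-κB letters. These matches describe the letters only, and binding was not measured in these libraries. No motif was present in all 3 of *C3*, *C1ra* and *C1s1*. *Masp1*, *Serping1*, *C4b* and *Cfb* were not in the promoter table, so their promoters were not searched.

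Of the proteases that start the classical pathway, *C1ra* (NCBI gene 50909) encodes C1r. Its reads were 2170 with siCtrl and 1329 with si*Vgll3*, or 12.3 and 8.14 TPM, for an M of −0.60 [−0.70, −0.50]. *C1s1* (NCBI gene 50908) encodes C1s, the protease that C1r activates, and had 1316 and 856 reads, or 7.01 and 4.98 TPM. Its M of −0.49 [−0.62, −0.37] was just short of the threshold for a lower gene, and its interval overlaps that of *C1ra*. The upper bound of *C1ra*, −0.497, also lies just above that threshold. The level of *C1s1* relative to *C1ra* was 0.569 in siCtrl and 0.611 in si*Vgll3*, so the ratio of these partners moved little.

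*C1ra* and *C1s1* lie on chromosome 6 of GRCm38, at 124512405 to 124523443 on the plus strand and at 124530345 to 124542359 on the minus strand, with 6902 bases between them in the GENCODE annotation. The cluster also holds *C1rl*, which encodes a C1r-like protease. It was at 9.77 and 7.60 TPM, an M of −0.36 [−0.46, −0.26], short of the threshold. The related copies *C1rb* and *C1s2* had hardly any reads, 0 and 0 for *C1rb* and 4 and 15 for *C1s2*. Of the 100-base windows of the longest coding *C1ra* transcript, 35.9% occur in a transcript of another gene, mainly *C1rb*, and 7.90% of those of *C1s1* occur in *C1s2*. How reads in such windows were assigned is not given in the sources used here. An antisense transcript, *Gm16567*, shares 576 of the 3129 exonic bases of *C1s1* and is absent from the count table. The libraries were made with a stranded kit, but the strand setting of the counting is not given in the sources used here either.

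*Masp1* (NCBI gene 17174), the lectin pathway protease gene, had the lowest M of the members, −1.36 [−1.51, −1.22]. The gene drew 1466 reads with siCtrl and 528 with si*Vgll3*, which gave 8.34 and 3.25 TPM. In rank among the 14158 genes with TPM, it went from 8443 to 10164, where rank 1 is the highest level. The gene makes several proteins by alternative splicing, and the table gives a single value for it. It lies on chromosome 16 from 23449417 to 23520815 on the minus strand. *Rtp4*, an interferon-induced gene on the other strand within these bounds, was at 19.4 and 3.26 TPM, an M of −2.57 [−2.75, −2.40], but shares 0 exonic bases with *Masp1*.

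The recognition molecules that carry these proteases to surfaces were mostly not detected. *Mbl1*, *Mbl2*, *Fcna*, *Fcnb*, *C1qb* and *C1qc* had 0 reads in each library, where 0 is compatible with at most 3 reads. *C1qa* had 0 and 7 reads. *Colec11*, a collectin that binds MASPs, was at 3.23 and 1.22 TPM from 294 and 103 reads, an M of −1.40 [−1.74, −1.07], an interval that overlaps that of *Masp1*. The membrane collectin gene *Colec12* was at 69.3 and 51.3 TPM, an M of −0.43 [−0.47, −0.40]. *Masp2* had 7 and 0 reads.

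The thioester proteins C4 and C3 are the substrates of these proteases and of the convertases. *C4b* (NCBI gene 12268) had 1878 and 1070 reads, which is 5.45 and 3.36 TPM, and its M was −0.70 [−0.81, −0.59]. *C3* (NCBI gene 12266) drew 21963 reads with siCtrl and 11181 with si*Vgll3*. Its level was 66.9 and 36.8 TPM, or 55.0% of siCtrl, with an M of −0.86 [−0.90, −0.83]. *C3* was thus 12.3 times as abundant as *C4b* in siCtrl and 11.0 times in si*Vgll3*. Both genes lie on chromosome 17, *C4b* at 34728380 to 34743882 in the MHC and *C3* at 57203970 to 57228136. For *C4b*, 16.5% of 100-base windows also occur in *C4a*, its neighbouring copy, which had only 15 and 11 reads. No 100-base window of *C3* occurs in a transcript of another gene.

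*Cfb* (NCBI gene 14962), the factor B gene of the alternative pathway, was near the limit of detection, with 62 reads under siCtrl and 87 under si*Vgll3*. The TPM values were 0.348 and 0.535, an M of 0.62 [0.13, 1.11], opposite in sign to that of *C3*. Its M was 0.19 once 1 TPM was added to each value, so the size of this difference cannot be read closely at this level. *C3* exceeded *Cfb* by 192 times in siCtrl and by 68.9 times in si*Vgll3*. *Cfb* lies 86 bases from *C2*, which encodes the related component of the classical pathway. *C2* was equally low, with 72 and 84 reads and an M of 0.33 [−0.14, 0.80], an interval that includes 0. The annotated read-through gene *Gm20547* shares 2246 of the 2825 exonic bases of *Cfb* on the same strand. *Cfp*, which encodes properdin, a stabiliser of the alternative convertase, drew 138 and 194 reads, an M of 0.61 [0.29, 0.93]. *Cfd*, the factor D gene, had 0 reads in both libraries. Of the 7 terminal component genes, 4 had 0 reads in both libraries and 0 had A > 0, while *C7* had 18 and 35 reads, *Hc*, the C5 gene, 10 and 27 reads and *C8g* 35 and 25 reads.

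*Serping1* (NCBI gene 12258) was the most abundant member. With 26403 reads under siCtrl and 11237 under si*Vgll3*, it was at 227 and 104 TPM, an M of −1.12 [−1.15, −1.09]. Its rank went from 719 to 1618. Its difference of −123 TPM made up most of the difference in the summed secreted genes. *Serping1* accounted for 62.8% of the TPM of the 9 genes in siCtrl and for 45.1% in si*Vgll3*. Set against its target proteases, *Serping1* was 11.8 times the summed TPM of *C1ra* and *C1s1* in siCtrl and 7.96 times in si*Vgll3*. With *Masp1* added to the sum it was 8.22 and 6.38 times, but the single *Masp1* value joins several proteins, not all of them targets. The level of *Serping1* thus differed more than either sum, although *Masp1* alone had a lower M. The gene lies on chromosome 2 from 84765387 to 84775444 on the minus strand, with no other annotated gene overlapping it and no 100-base window shared with another gene.

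Further secreted regulators were lower too. *Cfi*, which encodes the protease that degrades C3b and C4b, had 454 and 285 reads, an M of −0.56 [−0.78, −0.34]. *Clu*, which encodes clusterin, a chaperone that also binds terminal complexes, was at 26.5 and 18.0 TPM, an M of −0.56 [−0.64, −0.47]. The 3 secreted regulators described here with A > 0, *Serping1* included, were below −0.5, but the intervals of *Cfi* and *Clu* reach past that threshold. *C4bp* and *Vtn* had 7 and 8 reads with siCtrl and 0 with si*Vgll3*.

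Of the membrane regulators with A > 0, 2 were higher and 1 lay between the thresholds. *Cd55* (NCBI gene 13136) drew 3900 reads with siCtrl and 7994 with si*Vgll3*, or 24.1 and 53.4 TPM, with an M of 1.15 [1.09, 1.20]. Its rank went from 5313 to 2943. *Cd59a* (NCBI gene 12509) had 1121 and 1715 reads, or 10.0 and 16.5 TPM, an M of 0.73 [0.62, 0.84]. Its neighbour and related copy *Cd59b* had 35 and 53 reads, an M of 0.74 [0.09, 1.39], at a much lower level. *Cd59a* exceeded *Cd59b* 14.8 times with siCtrl and 14.7 times with si*Vgll3*. *Cr1l*, the gene of Crry, the rodent membrane inhibitor of C3 convertases, was at 82.9 and 80.4 TPM, an M of −0.05 [−0.09, −0.00102], the same to 2 decimals as the median of all genes. *Cd55* relative to *Cr1l* was 0.291 with siCtrl and 0.664 with si*Vgll3*. Among the membrane regulators with few reads, *Cd46* had 17 and 15 reads, and *Csmd1* had 52 and 7 reads, an M of −2.98 [−4.36, −1.83], in the opposite direction to *Cd55*. *Susd4* had 9 and 21 reads, an M of 1.43 [0.25, 2.74], in the same direction as *Cd55*.

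The counting interval of neither *Cd55* nor *Cd59a* came below 0.62, while the highest bound of the 6 secreted members with A > 0 was −0.37. Set against *C3*, the *Cd55* level was 0.360 in siCtrl and 1.45 in si*Vgll3*, a ratio 4.03 times as high. *Cd55* and *Cd59a* together made up 9.43% of the TPM of the 9 genes in siCtrl and 30.2% in si*Vgll3*. *Cd55* lies on chromosome 1 from 130439027 to 130462744 on the minus strand, where the antisense *Gm16083* shares 102 of its 4853 exonic bases. *Cd59a* lies on chromosome 2 from 104095801 to 104115354 on the plus strand. Windows of 100 bases shared with another gene made up 6.86% of the *Cd55* transcript, all in *Cd55b*, which had 0 reads in both libraries, and 0.293% of that of *Cd59a*.

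**Figure D3:**
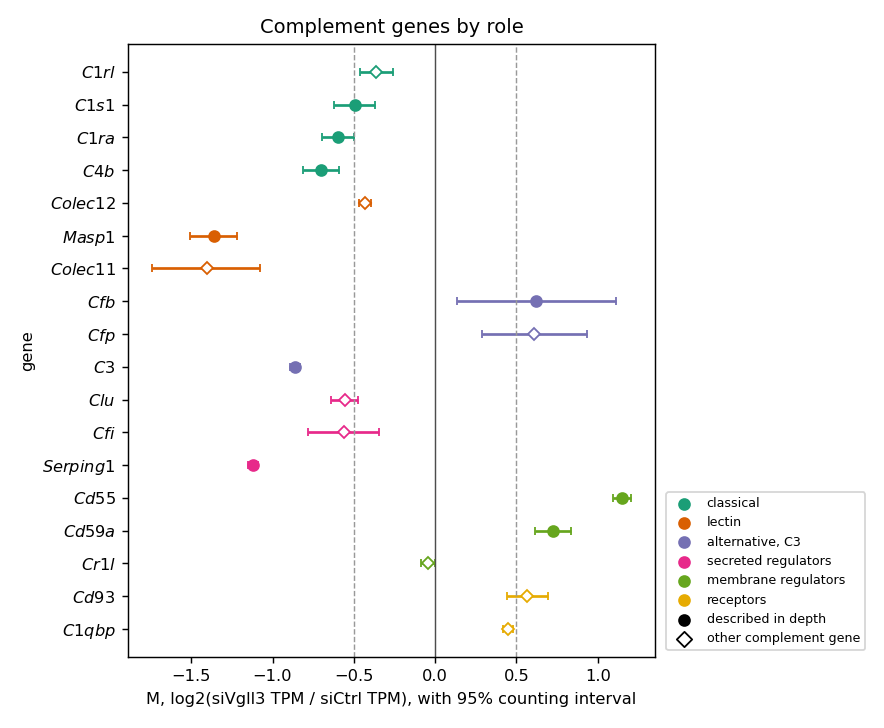
M (log2 of siVgll3 TPM over siCtrl TPM) with its 95% counting interval for the 9 genes described in depth (filled circles) and 9 other complement genes with A > 0 (open diamonds), coloured by role, with dashed lines at −0.5 and 0.5. The secreted regulators lie between −1.12 and −0.56, while *Cd55*, *Cd59a*, *Cfb*, *Cfp*, *Cd93* and *C1qbp* lie at 0.45 or above.

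Over a wider list of 58 complement symbols, 49 are other than the 9 members, and 9 of these had A > 0. Of the latter, 3 were lower (*Colec11*, *Cfi* and *Clu*), 2 were higher (*Cfp* and *Cd93*) and 4 lay between, with a median M of −0.36. A further 20 had 0 reads in both libraries. Among the receptors, *C1qbp*, a mainly mitochondrial protein that can bind C1q, was at 177 and 242 TPM, an M of 0.45 [0.42, 0.48], and *Cd93* was at 2.19 and 3.24 TPM, an M of 0.57 [0.44, 0.69]. The anaphylatoxin receptor gene *C3ar1* had 34 and 131 reads, an M of 2.05 but only 0.124 and 0.512 TPM. *C5ar1*, *Itgam* and *Itgax* had 0 reads in both libraries. Without a filter on low values, 7 of 19 of the other complement genes were above 0.5 and the median M was 0.27, so the direction of this list depends on genes with few reads. The median of −0.36 describes the more abundant genes only.

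Neighbouring genes did not all share the members' direction. Within 100 kb of *C3*, 4 other genes had A > 0, of which 0 were lower, with a median M of 0.13. For *Serping1*, 3 of 8 such neighbours were lower and their median M was −0.14. Around *C4b*, 2 of 7 neighbours were lower and 1 was higher, with a median M of −0.31. Both tested neighbours of *Masp1* were lower, and *Cd55* had none.

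As complement genes are known to respond to interferons and to acute-phase signals, lists of such genes are given as context. Among interferon-induced GTPase genes, 9 had A > 0 with a median M of −1.71, of which 8 were lower and 0 were higher. Their most abundant members were *Irgm1* at −0.72, *Irgm2* at −2.07 and *Gbp2* at −0.37. Class I antigen presentation genes had a median of −0.45 over 19 genes, with 9 lower, and the most abundant were *Calr* at −0.27, *B2m* at −0.14 and *Pdia3* at −0.09. Interferon signalling genes had a median of −0.27 over 18 genes, with 5 lower and 13 between the thresholds. *Stat3*, *Jak1* and *Ifnar2*, the most abundant of these, were at −0.29, −0.26 and 0.03. The acute-phase list joins acute-phase proteins with *Il6* and regulators such as *Cebpd* and *Nfkb1*. It went both ways, with 3 lower and 4 higher of 15 and a median of −0.29. The 3 lower were *Serpina3g* at −1.93, *Hp* at −1.02 and *Serpina3n* at −0.59. The 4 higher were *Lcn2* at 2.02, *Cebpb* at 1.62, *Il6* at 1.13 and *Ptx3* at 0.90. The most abundant of the list were *Ptx3*, *Il6* and *Cebpd*, the last at 0.02. These lists stand beside the complement genes as values, and a shared cause was not tested.

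**Figure D4:**
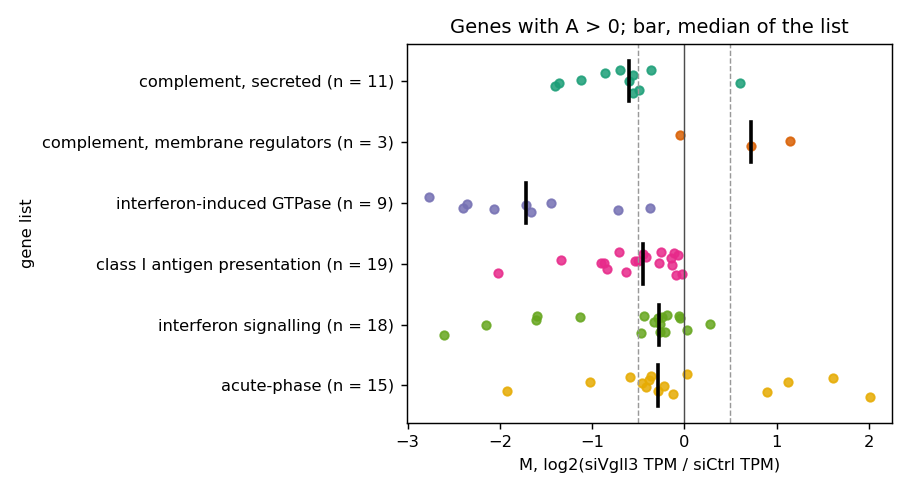
M (log2 of siVgll3 TPM over siCtrl TPM) of each gene with A > 0 in 6 gene lists (points, spread vertically for visibility), with the median of each list as a black bar and dashed lines at −0.5 and 0.5. Of the 11 genes of secreted complement proteins, 8 lie below −0.5 and 1, *Cfp*, lies above 0.5, while the 9 interferon-induced GTPase genes all lie below 0.

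Levels in bulk RNA can differ because fewer cells of a type are present or because each cell holds less of the RNA, and these cannot be told apart here. All 10 myofibroblast markers were detected, with a summed level of 26612 and 25236 TPM. Of these, 3 were lower, namely *Postn* at an M of −1.22, *Col1a1* at −0.90 and *Col1a2* at −0.53. The 2 higher were *Thy1* at 0.72 and *Tagln* at 0.52. Of 10 leukocyte markers, *Ptprc*, which encodes CD45, *Adgre1*, *Fcgr1* and *Itgam* had 0 reads in both libraries. The list summed to 15.8 and 14.4 TPM, a sum that joins genes of both directions. Of the 5 with A > 0, 1 was lower, *Lyz2* at an M of −1.80. The 3 higher were *Cd53* at 2.96, *Cd14* at 0.62 and *Csf1r* at 0.50, and *Cd68* was at −0.09. Endothelial markers summed to 27.2 and 22.8 TPM over 7 genes, and of the 4 with A > 0, 1 was lower and 0 were higher. The lower gene was *Tek*, at 19.5 and 13.4 TPM, an M of −0.54. *Cdh5* was at 0.50, *Pecam1* at 0.47 and *Emcn* at −0.02, so the lower sum does not describe each gene. The pericyte markers with a TPM value, *Rgs5*, *Cspg4* and *Abcc9*, summed to 1.62 and 1.36 TPM. *Rgs5* and *Cspg4* were at a lower level in si*Vgll3*, but *Abcc9* had 6 and 20 reads. *Kcnj8*, without a TPM value, had 0 and 24 reads. Of 7 cardiomyocyte markers, 5 had 0 reads in both libraries, among them *Myh6*. *Tnnt2* was at 60.0 and 10.4 TPM, while *Tnni3* went the other way, with 0 reads in siCtrl and 10 in si*Vgll3*. Mesothelial markers went both ways. All 4 were detected, 3 were lower and 1 was higher, and their sum was 53.2 TPM with siCtrl and 24.5 TPM with si*Vgll3*. *Upk3b* was at −1.68, *Lrrn4* at −1.67, *Wt1* at −0.67 and *Msln* at 1.91. Their part in the levels of *C3*, *Serping1* and the other secreted genes was not tested.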

How the data were processed

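Per the labels and the methods of the study, libraries were made with the TruSeq Stranded mRNA LT kit and read on a NovaSeq instrument, reads shorter than 36 bases were removed with Trimmomatic, and the rest were mapped to mm10 with HISAT2 and assigned to known genes with StringTie. Tool versions and the annotation release are not given in the sources used here. The authors deposited raw read counts per gene and, in a table for each library, TPM per gene. From these, M, A and Clopper-Pearson intervals were computed with scipy 1.17.1, with nothing added before the logarithm. With 1 library per condition no test was made, and edgeR 4.0.16 and DESeq2 1.42.0 supplied scaling factors only, as alternatives. The interval was tested on simulated data in which reads were independent, as the interval assumes. That test cannot show how the interval covers variation beyond counting error. Positions and transcripts came from GENCODE vM21 (GRCm38) and promoters from RefSeq (GRCm38.p6).

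The members and all gene lists were chosen with earlier results of these data known, and nothing here is independent support for them. Genes named are the 9 members, every other listed complement gene with A > 0 (1 gene of that list is not reported here and was left out of its counts and medians), the copies of members, the 3 most abundant genes of each context list, and *Vgll3*. Other named genes (*Rtp4*, marker genes, complement genes with few reads, acute-phase genes past the thresholds) were chosen after their values were seen.

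Alternatives were counts scaled to CPM, by TMM or with DESeq2's size factors, centred M, 0.1 or 1 TPM added, A > 2, at least 10 reads in each library, no filter, a threshold of 1 on M, and intervals wholly beyond 0.5.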

Additional observations from a re-analysis of the deposited data

How the results depend on the processing

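No paired analysis was possible because there is 1 library per condition, and leaving out a library was impossible for the same reason. The cause of changed counts and medians was not tested. Depth limits *Cfb* and the other genes under about 100 reads, whose intervals are wide, and does not limit *C3* or *Serping1*. Every member kept its direction under each alternative that gave it a value. M was between −0.86 and −0.81 for *C3* and between −1.12 and −1.07 for *Serping1*, between −0.60 and −0.54 for *C1ra*, between −0.49 and −0.42 for *C1s1*, between −1.36 and −1.14 for *Masp1*, between −0.70 and −0.57 for *C4b*, between 1.12 and 1.20 for *Cd55*, between 0.67 and 0.78 for *Cd59a* and between 0.19 and 0.62 for *Cfb*, which had a value in only 4 settings, the reported one included, against 10 for each other member. With CPM and no filter, *Cfb* had an M of 0.65.

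With a threshold of 1 on M, 2 members were lower and 1 higher, 1 of the other complement genes was lower and 0 higher, and 384 genes of all were lower and 207 higher. Without a filter, 2103 genes of all were lower and 1428 higher, the other complement genes had 7 above 0.5 and a median of 0.27, which reversed their direction, and the interferon-induced GTPase median was −2.07. At least 10 reads in each library gave 1159 higher genes of all, 5 higher among the other complement genes, whose median was 0.11, a reversal, and a GTPase median of −2.07. With A > 2, 393 genes of all were higher, 1 of the other complement genes was lower and 0 higher, and the GTPase median was −2.07. Adding 1 TPM gave medians of −0.54 for the members, 0.085 for the other complement genes, a reversal, and −0.85 for the GTPase genes, with 0 other complement genes higher. Requiring intervals wholly beyond 0.5 left 977 lower and 442 higher genes of all, 4 lower members, without *C1ra*, and 2 higher members, and 1 of the other complement genes was lower and 0 higher. For class I genes the median was −0.38 with CPM and −0.39 with TMM scaling. Interferon signalling genes had medians of −0.22 with CPM and −0.23 with TMM scaling, DESeq2's size factors or centred M.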
